A study of Mus musculus with 48 samples.

Results

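The 10 genes described here are named markers of microglia and of the complement system, given by symbol: C1qa, C1qb, C1qc, Cx3cr1, P2ry12, Tmem119, Csf1r, Aif1, Trem2 and C4b. All 10 were found among the 37620 genes of the deposited table. Each passed the filter on low values, with 1 ppm of a typical library total (14.06 deposited units) or more in at least 12 libraries, which 15350 genes passed. The genes were selected by name as known markers, with earlier results of these data known, and are described as 3 C1q chains, 6 other microglia markers and C4b.

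Microglia are the resident macrophages of the brain, which survey the tissue with motile processes and depend on signals from neurons and astrocytes. They are the main source of C1q in the brain, a protein assembled from A, B and C chains that starts the classical complement pathway by binding to targets, after which the proteases C1r and C1s cleave C4 and then C2. Deposition of complement at synapses and its uptake by microglia are known from studies of developing and diseased mouse brain.

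The libraries came from mice of an outbred heterogeneous stock made from the collaborative cross (HS-CC), bred for 4 generations for High or for Low ethanol preference. Each of the 4 groups held 12 mice: High females and High males, and as their counterparts Low females and Low males (gender F and M in the labels). The labels name no age, treatment or engineered allele. The tissue was the nucleus accumbens shell, a ventral striatal region of the reward circuit, taken by laser microdissection, and poly(A) RNA was sequenced from 1 library per mouse. Each line is 1 population, the labels name no families or litters, and p-values therefore measure the spread between these mice. In such bulk tissue, fewer microglia and less of a transcript per microglial cell cannot be told apart.

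Library totals of the deposited values lay between 13579559 and 14561911. Transcripts that mark the shell's principal cells, the medium spiny neurons, summed to between 98709 and 152272 per library. Markers of blood monocytes and granulocytes summed to at most 79, with only 1 of 8 past the filter, and 4 of 10 perivascular and meningeal macrophage markers passed it. All 9 microglia markers were present in every library, with a lowest value of 83 (Aif1). High male replicate 1 was the library least like the others, at a median correlation of 0.967. Summed levels of cortical pyramidal neuron markers ran from 17 to 277 in High females, 13 to 2114 in High males, 23 to 1002 in Low females and 13 to 5000 in Low males. Oligodendrocyte markers had medians of 16408 in High females, 17010 in High males, 20594 in Low females and 18069 in Low males.

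Levels of the genes were first set in order as ppm per kilobase of annotated exon. The length used was that of all annotated exons of a gene together, which can exceed that of the transcripts present. C1qa came first at 33.1 ± 5.08 ppm per kilobase (SD, n = 48 mice), followed by C1qb at 25.6 ± 4.75. Csf1r, the receptor for the survival factors encoded by Csf1 and Il34, stood at 16.3 ± 2.16. Each of these 3 lay above the next gene of the order in all 48 mice. P2ry12, a receptor for ADP that draws microglial processes to injury, followed at 10.8 ± 1.80, above the fifth gene, C1qc, in 39 of 48 mice. C1qc stood at 8.37 ± 3.07 and Aif1, which encodes the calcium-binding protein IBA1, at 7.85 ± 2.24, and C1qc was the higher of this pair in 24 of 48 mice. Tmem119, a transmembrane protein used to tell microglia from blood macrophages, followed at 6.71 ± 1.33, below Aif1 in 32 of 48 mice. Cx3cr1, the receptor for the neuronal chemokine encoded by Cx3cl1, stood at 5.05 ± 0.949, below Tmem119 in 47 mice. Trem2, a lipid-sensing receptor that signals through Tyrobp, stood at 3.16 ± 0.677 and C4b, the gene of complement component C4, at 2.82. Trem2 lay above C4b in 31 of 48 mice, so the order of these neighbours, as that of C1qc and Aif1, varied from mouse to mouse. The place of Trem2 rests on its annotated length of 4946 bases. Before division by length its mean count was 220, beside 227 for C1qc (1931 bases) and 218 for Tmem119 (2315 bases).

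The spread between mice of 1 group differed several-fold among the genes. The coefficient of variation of normalised counts within groups was 13.3% for Csf1r, 15.2% for C1qa, 16.9% for P2ry12, 18.7% for C1qb and 18.8% for Cx3cr1. It was 20.0% for Tmem119 and 20.9% for Trem2. Higher values were found for Aif1, at 28.7%, for C1qc, at 33.2%, and for C4b, at 38.4%. Counting error alone would give between 2.75% for Csf1r and 7.69% for Aif1 if 1 deposited unit were 1 read. The highest mouse exceeded the lowest by 1.81-fold for Csf1r, by 5.41-fold for C1qc and by 6.64-fold for C4b.

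**Figure D1:**
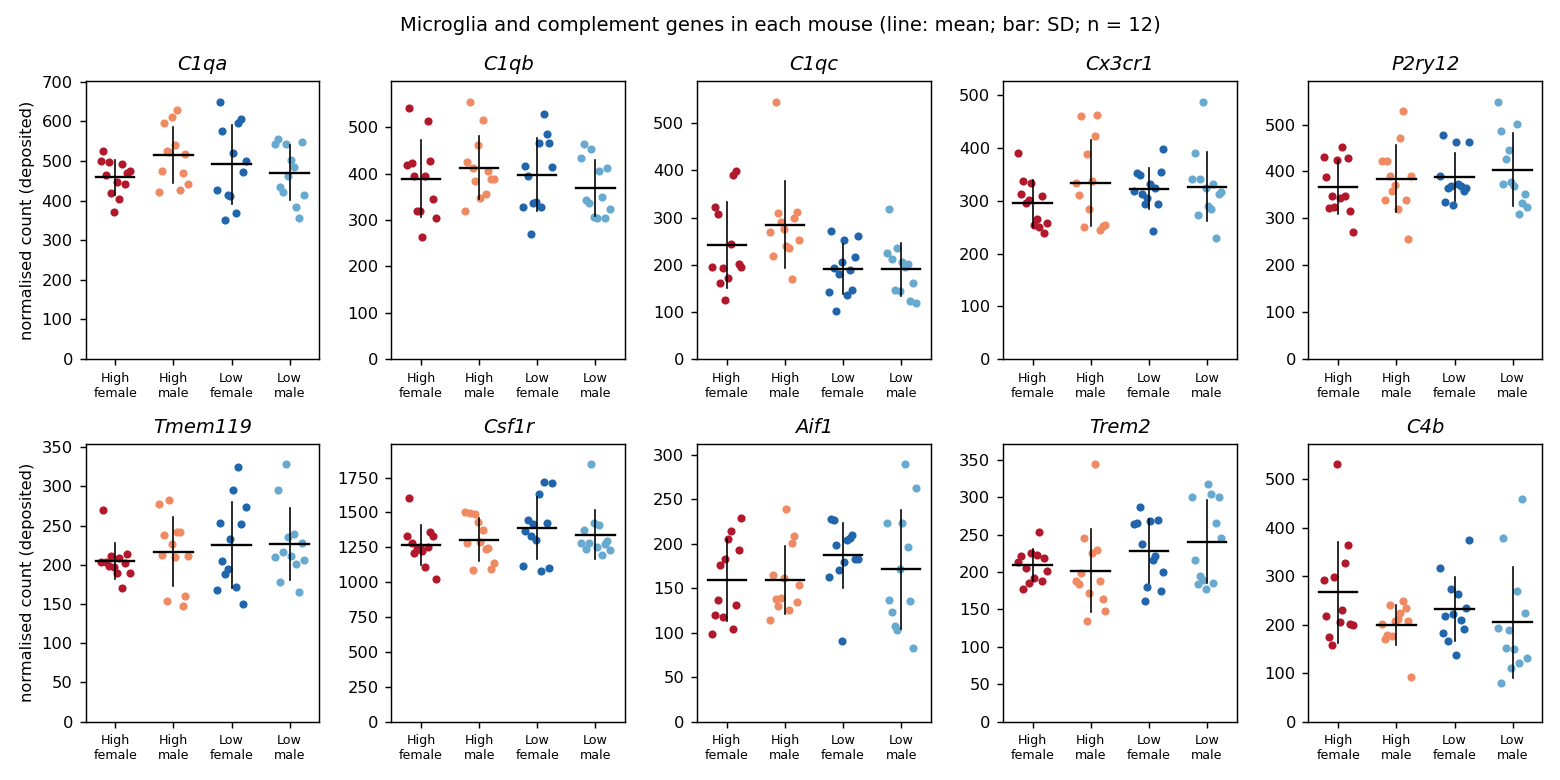
Deposited normalised counts (vertical axis, from 0) of the 10 genes in each mouse, by line and gender; horizontal lines are group means, bars are SDs and each group has 12 mice. The 4 groups overlap for every gene, and the High mice reach higher for C1qc, up to 546, than the Low mice, up to 318.

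The first comparison asked whether the selected lines differed. None of the 10 genes was called between High and Low mice at a Benjamini-Hochberg adjusted p under 0.05 (limma), where 43 of all 15350 genes were called (0.28%). At an unadjusted p under 0.05, 2 of the 10 passed, C1qc and Trem2, beside 9.07% of all genes. C1qc was higher in the High line, where 4.57% of all genes had such a p with a positive difference, and Trem2 was lower, where 4.5% had one with a negative difference. All 3 C1q chains had a difference above 0, High minus Low, and all 6 other microglia markers one below 0, where 48.5% of all genes were above 0. The median over the 10 genes was -0.07 on the log2 scale, against -0.0028 for all genes tested.

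C1qa, C1qb and C1qc lie side by side on the minus strand of chromosome 4, with first listed exon starts on mm9 at 136451832 (C1qa, ENSMUSG00000036887), 136436044 (C1qb, ENSMUSG00000036905) and 136445719 (C1qc, ENSMUSG00000036896). C1qc lies between the other chains, and its exons shared no 25-base word with another gene. Promoter windows from 250 bases before to 50 bases after the annotated start were available from RefSeq (GRCm38.p6) for 6 of the 10 genes. They are shown for the chain genes C1qb and C1qc, which varied together between mice, and for Trem2, the other gene with a low unadjusted p. The core recognised by the myeloid factor PU.1, GAGGAA on either strand (TTCCTC when it lies on the other strand), is in capitals.
C1qb, chr4:136886151-136886450, minus strand: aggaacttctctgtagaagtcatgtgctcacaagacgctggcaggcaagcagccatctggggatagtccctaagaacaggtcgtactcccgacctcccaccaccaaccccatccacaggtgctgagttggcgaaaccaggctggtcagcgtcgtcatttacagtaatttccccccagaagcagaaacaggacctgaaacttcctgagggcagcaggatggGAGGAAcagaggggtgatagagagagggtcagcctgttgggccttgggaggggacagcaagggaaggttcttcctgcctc
C1qc, chr4:136892865-136893164, minus strand: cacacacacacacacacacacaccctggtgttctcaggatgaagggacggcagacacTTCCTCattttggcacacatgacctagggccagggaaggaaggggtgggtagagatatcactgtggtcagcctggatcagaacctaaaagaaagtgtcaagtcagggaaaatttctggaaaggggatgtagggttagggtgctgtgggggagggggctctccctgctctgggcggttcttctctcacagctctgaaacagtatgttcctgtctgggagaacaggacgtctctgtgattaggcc
Trem2, chr17:48346151-48346450, plus strand: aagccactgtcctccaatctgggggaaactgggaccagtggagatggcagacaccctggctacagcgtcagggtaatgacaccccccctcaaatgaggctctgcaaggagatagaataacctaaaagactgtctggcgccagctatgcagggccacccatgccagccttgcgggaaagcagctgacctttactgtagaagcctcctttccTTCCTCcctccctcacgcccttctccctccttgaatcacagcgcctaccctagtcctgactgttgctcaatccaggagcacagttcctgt
The core occurred in 4 of the 6 windows, C1qb, C1qc, Aif1 and Trem2, and in 28.3% of 32851 promoter windows of the same length. Measured from the annotated start, it began at -30 in C1qb, -193 in C1qc and -40 in Trem2. The AP-1 motif TGANTCA was found in Trem2 alone of the 6 and in 7.81% of all windows.

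C1qc normalised counts ran from 126 to 399 in High females, with a median of 198, and from 169 to 546 in High males, with a median of 272.5. In Low females they ran from 101 to 271, with a median of 191, and in Low males from 118 to 318, with a median of 198. The groups overlapped: 4 of 24 High mice lay above the highest Low mouse, and 19 of 24 lay above the Low median. The mean was 264 ± 92.2 in High mice and 191 ± 53.8 in Low mice (SD, n = 24 each), a 1.35-fold higher level on the fitted scale. The log2 difference was 0.43 ± 0.12 (SE), with an unadjusted p of 0.000809 and a limma adjusted p of 0.11, the 113th smallest p of all genes tested. In females the log2 difference was 0.30 ± 0.17 (p = 0.0862, limma adjusted p = 1.00), and in males 0.56 ± 0.17 (p = 0.00181, limma adjusted p = 0.375). The difference between these values was -0.26 ± 0.24 (females minus males, p = 0.279, 95% interval -0.75 to 0.22).

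C1qa, the A chain, had close means in the lines. Its counts ran from 372 to 526 in High females (median 467.5), 422 to 628 in High males (520.5), 351 to 650 in Low females (487) and 355 to 555 in Low males (473.5). All of the group ranges overlapped. The mean was 487 ± 64.3 in High mice and 481 ± 84.3 in Low mice, and the log2 difference of 0.03 had a 95% interval of -0.10 to 0.15. C1qb, the B chain, ran from 263 to 541 in High females (median 394.5), 319 to 555 in High males (397), 270 to 529 in Low females (404.5) and 304 to 463 in Low males (346). It averaged 401 ± 75.7 in High mice and 383 ± 70.0 in Low mice, with a log2 difference of 0.06 and an interval of -0.09 to 0.21. For both chains the difference was below 0 in females, at -0.08 for C1qa and -0.04 for C1qb, and above 0 in males, at 0.13 for C1qa and 0.16 for C1qb. With 1 female library left out in turn, the value for C1qb in females ran to 0.0117. Neither interaction passed the test (unadjusted p = 0.102 for C1qa and 0.199 for C1qb, limma).

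The ratio of C1qc to the sum of C1qa and C1qb was higher on average in High mice. It averaged 0.282 ± 0.0841 in High females, 0.306 ± 0.0743 in High males, 0.216 ± 0.0482 in Low females and 0.225 ± 0.0476 in Low males (SD, n = 12 each). In 9 of 24 High mice the ratio was above that of the highest Low mouse, 0.312. The ratio of C1qb to C1qa averaged 0.824 ± 0.118 in High mice and 0.801 ± 0.0879 in Low mice, with 2 of 24 High mice above the Low range. These ratios combine genes of the list and are given as descriptions, with no test.

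**Figure D2:**
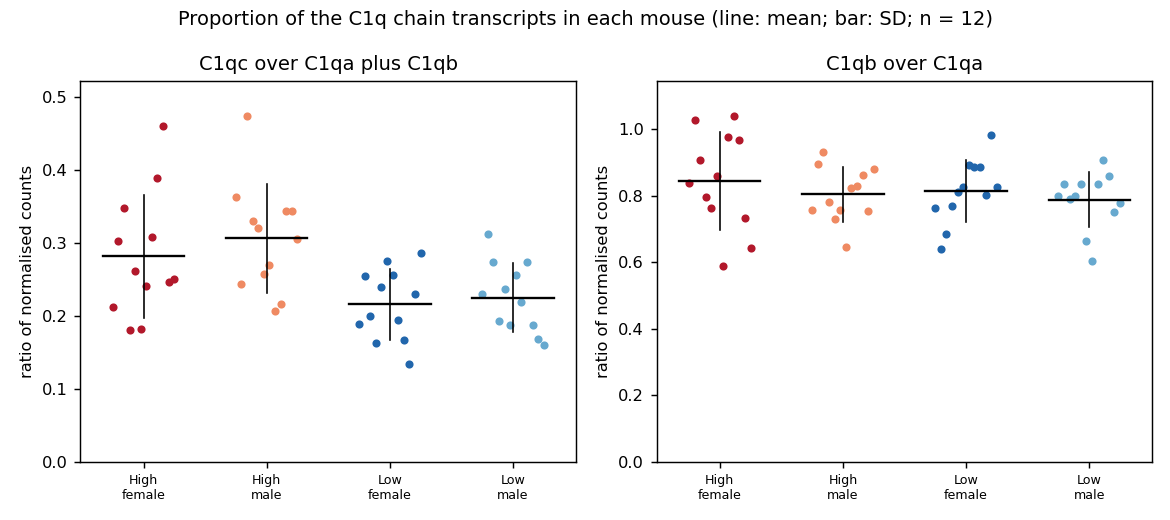
Ratios of normalised counts of the C1q chain genes in each mouse (vertical axes, from 0), by line and gender; lines are means, bars SDs, 12 mice per group. C1qc relative to C1qa plus C1qb averages 0.294 in High and 0.22 in Low mice, whereas C1qb relative to C1qa averages 0.824 and 0.801.

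All 3 exons of C1qc pointed the same way. The last exon, which held 84.2% of the gene's counts, averaged 220 ± 77.1 in High and 163 ± 44.8 in Low mice (log2 difference 0.41 ± 0.12, p = 0.00115). The middle exon averaged 40.6 ± 15.8 in High and 26.6 ± 10.8 in Low mice (log2 difference 0.64 ± 0.17, p = 0.00036). The first exon averaged 3.04 and 1.79 in High and Low mice. Without the last exon the C1qc difference was 0.53. Across the 10 genes 77 exons were tested and none was called (0.00875% of 148532 exons were), with 4 at an unadjusted p under 0.05, 2 of C1qc and 2 of Trem2 (4.91% of all exons).

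Trem2 (ENSMUSG00000023992, chromosome 17, first listed exon start 48485726 on mm9) differed in the other direction. Its counts ran from 178 to 254 in High females (median 209.5), 134 to 344 in High males (188), 161 to 287 in Low females (229.5) and 177 to 318 in Low males (231). The ranges overlapped, and 21 of 24 High mice lay below the Low median. The mean was 205 ± 41.3 in High mice and 235 ± 48.8 in Low mice. The log2 difference was -0.18 ± 0.08 (SE, p = 0.0283, limma adjusted p = 0.457), with -0.11 ± 0.11 in females (p = 0.339, limma adjusted p = 1.00) and -0.25 ± 0.11 in males (p = 0.0303, limma adjusted p = 0.679). All 4 tested exons were below 0, from -0.24 to -0.08. Leaving out High male replicate 5 raised the unadjusted p to 0.0508.

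The other microglia markers had differences between -0.14 and -0.06, and the 95% interval of each held 0. Csf1r counts ran from 1022 to 1606 in High females, 1086 to 1501 in High males, 1077 to 1716 in Low females and 1193 to 1845 in Low males. Aif1 counts ran from 98 to 229 in High females, 114 to 239 in High males, 91 to 228 in Low females and 83 to 289 in Low males. Over all groups P2ry12 lay between 257 and 549, Cx3cr1 between 229 and 488 and Tmem119 between 148 and 328, with overlap of every group. Aif1 averaged 159 ± 41.4 in High and 179 ± 53.4 in Low mice (log2 difference -0.14 ± 0.12, p = 0.227). Csf1r averaged 1286 ± 146 in High and 1364 ± 197 in Low mice (-0.08 ± 0.05, p = 0.139), and all 21 of its tested exons were below 0. Tmem119 averaged 211 ± 35.4 in High and 226 ± 49.4 in Low mice (-0.08 ± 0.08, p = 0.285). P2ry12 averaged 375 ± 64.1 in High and 396 ± 64.4 in Low mice (-0.08 ± 0.07, p = 0.248). Cx3cr1 averaged 315 ± 67.4 in High and 325 ± 52.6 in Low mice (-0.06 ± 0.07, p = 0.429). The interval for Csf1r, -0.18 to 0.03, was the narrowest of the 10 genes. In females 11 of 12 High mice lay below the Low median for Csf1r, Tmem119 and Trem2 each, 9 for Cx3cr1, 8 for Aif1 and 7 for P2ry12. In males these counts were 10 for Trem2, 7 for Aif1, 6 each for Cx3cr1, P2ry12 and Tmem119, and 5 for Csf1r. The ranges overlapped, and the lowest unadjusted limma p of the 6 markers in females was 0.115.

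Within females alone, none of the 10 genes was called (4 of all genes were, 0.0261%), and none reached an unadjusted p under 0.05 (4.68% of all genes did). Within males none was called (0 of all genes, 0%), and C1qc and Trem2 reached an unadjusted p under 0.05, as did 6.93% of all genes. The line by gender interaction called none of the 10 and none of all genes (0%), with 0 of the 10 and 2.4% of all genes at an unadjusted p under 0.05. Its estimates ran from -0.26 for C1qc to 0.14 for Trem2.

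**Figure D3:**
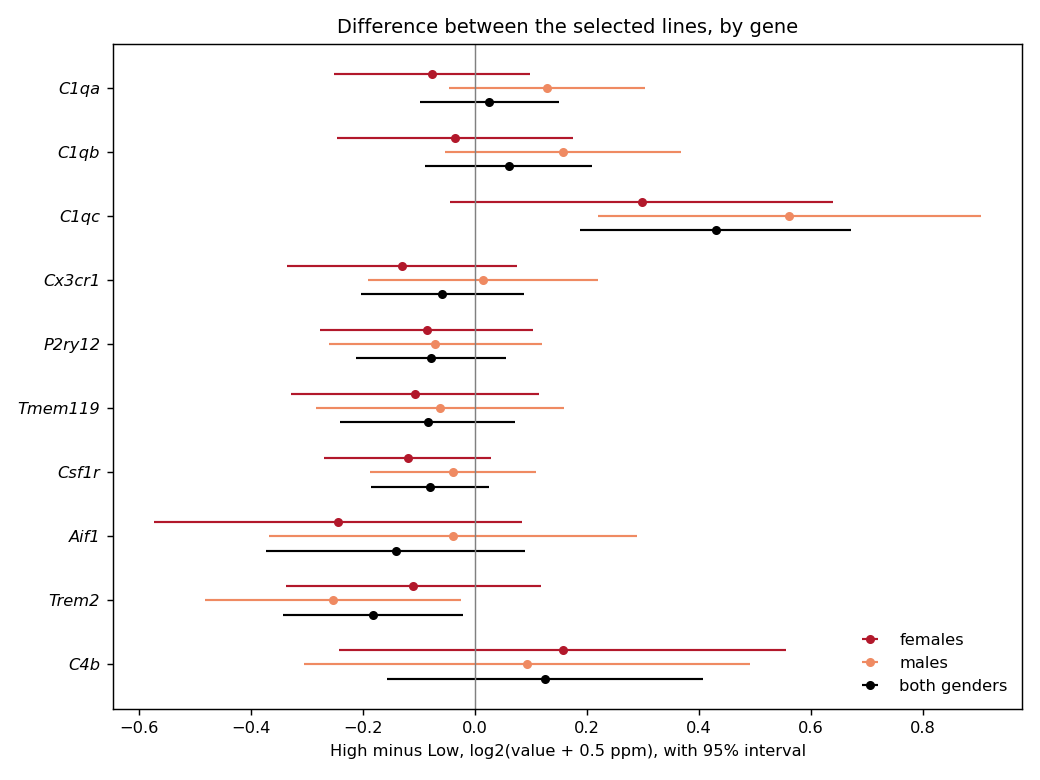
Difference between High and Low mice (horizontal axis, High minus Low in log2 of value plus 0.5 ppm) for each gene in females, in males and over both genders; bars are 95% intervals from 1 limma fit of 48 libraries. The interval over both genders leaves out 0 for C1qc (0.19 to 0.67) and Trem2 (-0.34 to -0.02).

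The second comparison set females against males. None of the 10 genes was called (12 of all genes were, 0.0782%). C4b alone reached an unadjusted p under 0.05, as did 4.21% of all genes. C4b (ENSMUSG00000073418) lies in the major histocompatibility region of chromosome 17, as does Aif1, with first listed exon starts on mm9 at 34865325 and 35307936. C4b counts ran from 159 to 531 in High females (median 224), 93 to 249 in High males (208), 137 to 375 in Low females (220.5) and 80 to 460 in Low males (170.5). The ranges overlapped, and 18 of 24 females lay above the male median. The mean was 250 ± 87.7 in females and 202 ± 84.0 in males (SD, n = 24 each), with a log2 difference of 0.33 ± 0.14 (SE, p = 0.0238, limma adjusted p = 0.982). Between the lines C4b averaged 233 ± 85.3 in High and 219 ± 92.3 in Low mice (log2 difference 0.13 ± 0.14, p = 0.376).

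C4b is nearly identical to its neighbour C4a: 53.9% of its 25-base words also occur in C4a, and the labels do not say how such reads were counted. The split between the pair is therefore uncertain. C4a averaged 228 ± 111 in females and 178 ± 137 in males (log2 difference 0.51 ± 0.22, p = 0.0265, limma adjusted p = 0.982). The summed counts of the pair, a measure chosen after the data were seen, averaged 477 ± 121 in females and 380 ± 188 in males, a log2 difference of 0.41. C4b made up between 29.1% and 83.3% of the sum in single mice, and the correlation of C4b with C4a between mice was 0.0625 (Spearman -0.0715, n = 48, given with no test). Csf1r overlaps Hmgxb3 on the opposite strand over 873 exonic bases, 15.1% of its exon length, and reads from this stretch cannot be assigned without strand.

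For the 9 microglia markers the gender differences were small, from -0.13 for C1qc to 0.08 for Aif1. Csf1r averaged 1327 ± 192 in females and 1323 ± 161 in males (log2 difference -0.0006, 95% interval -0.11 to 0.10). The spread between mice was compared between the lines in the same way. None of the 10 genes was called (9 of all genes were, 0.0586%), and C1qa alone had an unadjusted p under 0.05, as did 3.97% of all genes. The coefficient of variation of C1qa was 9.71% in High females, 13.7% in High males, 20.2% in Low females and 14.7% in Low males (difference in absolute log2 deviation -0.08 ± 0.04, p = 0.0468, limma adjusted p = 0.998).

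Co-variation between mice was then examined after removing each group's mean, so that differences between lines or genders could not create it. Of the 45 pairs, 15 had a Benjamini-Hochberg adjusted permutation p under 0.05 by Pearson correlation and 14 by Spearman correlation (100000 permutations of mice within groups, two-sided). All 3 pairs among the C1q chains were among them, as were 6 of 15 pairs among the other microglia markers and 6 of 18 pairs between a chain and a marker. None of the 9 pairs with C4b was. Correlations of this size were common among all genes for some of the 10, so the rank of a partner among all 15349 other genes is given with the pairs. The 99th percentile of r over all genes was 0.36 for C1qa and 0.56 for Cx3cr1.

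The chains varied together. C1qa and C1qb had r = 0.71 (Spearman 0.70), with a permutation p of 1e-05 in both, the smallest these permutations can give, and an adjusted p of 0.000225. Without the 2 mice farthest from the median of C1qa, r was 0.70. Within the groups it was 0.52 in High females, 0.77 in High males, 0.83 in Low females and 0.74 in Low males. For every pair, the 2 mice left out were those farthest from the median of the gene that comes first in the list of 10. Mice extreme only for the second gene stayed in. C1qb and C1qc had r = 0.65 (Spearman 0.62, permutation p = 3e-05 and 4e-05, adjusted p = 0.000337 and 0.0006), and 0.60 without the 2 farthest mice. C1qa and C1qc, the weakest of the pairs, had r = 0.50 (Spearman 0.43, permutation p = 0.00016 and 0.003, adjusted p = 0.0012 and 0.0123), and 0.42 without the 2 farthest mice. C1qb ranked 1 of all genes for C1qa and for C1qc, and C1qc ranked 10 for C1qa.

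Among the other markers Tmem119 and Csf1r were the closest pair of all 45, at r = 0.80 (Spearman 0.75, permutation p = 1e-05 each, adjusted p = 0.000225). It was 0.66 in High females, 0.79 in High males, 0.89 in Low females and 0.80 in Low males, and 0.76 without the 2 farthest mice. Cx3cr1 joined them, with r = 0.59 to Tmem119 (Spearman 0.54, permutation p = 3e-05 and 0.00012, adjusted p = 0.000337 and 0.00135; 0.53 without 2 mice). It had r = 0.52 to Csf1r (Spearman 0.49, permutation p = 0.00014 and 0.00063, adjusted p = 0.0012 and 0.00567; 0.49 without 2 mice) and 0.51 to P2ry12 (Spearman 0.45, permutation p = 0.00054 and 0.00235, adjusted p = 0.00347 and 0.0117; 0.45 without 2 mice). P2ry12 had r = 0.43 to Tmem119 (adjusted p = 0.0122) and 0.35 to Csf1r (adjusted p = 0.0434, and 0.052 by Spearman). Tmem119 and Csf1r ranked 1 for each other. For Cx3cr1, in contrast, Tmem119 ranked 86, Csf1r 355 and P2ry12 417, and for P2ry12 Csf1r ranked 1523.

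Aif1 and Trem2 stood outside these pairs: no pair of either gene with another of the 10 passed the test. The correlations of Aif1 with the other 9 genes ran from -0.25 with C1qc to 0.22 with Trem2. Trem2 had r = 0.34 with C1qa (adjusted p = 0.07), 0.31 with P2ry12 (adjusted p = 0.107) and values within 0.1 of 0 with Cx3cr1, Tmem119, Csf1r and C1qc. C4b ranged from -0.32 with Tmem119 (adjusted p = 0.0579) to 0.19 with Trem2.

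Pairs of a chain with a marker had a median r of 0.289, and pairs within the chains ran from 0.50 to 0.71. Pairs within the 6 markers had a median r of 0.222 and ran from -0.21 to 0.80. C1qa passed with Tmem119 (r = 0.46, adjusted p = 0.0182) and Csf1r (r = 0.44, adjusted p = 0.0182). C1qb passed with Csf1r (r = 0.45, adjusted p = 0.0106), Tmem119 (0.38, 0.0286), P2ry12 (0.35, 0.0434) and Cx3cr1 (0.35, 0.0434), each r with its adjusted p. For C1qa, Tmem119 ranked 23 and Csf1r 31 among all genes, whereas for C1qb Csf1r ranked 140, Tmem119 487, P2ry12 780 and Cx3cr1 833. Seen from the markers the ranks were farther down. C1qa ranked 953 for Tmem119 and 486 for Csf1r. C1qb ranked 453 for Csf1r, 1761 for Tmem119, 1420 for P2ry12 and 2138 for Cx3cr1. C1qc passed with none of the 6, and its highest value was 0.34 with Csf1r (adjusted p = 0.053). The mean log2 level of the 3 chains and that of the 6 markers had r = 0.31 (Spearman 0.35, n = 48), as a description. With C1qa and C1qb alone it was 0.44, and with C1qc alone 0.12.

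This relation took different values in the lines. The chain mean and the marker mean had r = -0.14 in High females, -0.0389 in High males, 0.63 in Low females and 0.59 in Low males. Among the 18 pairs of a chain and a marker, 17 had a lower r in High than in Low mice, with medians of 0.084 in High and 0.481 in Low mice. With Csf1r, r was 0.32 in High and 0.51 in Low mice for C1qa. It was 0.41 and 0.49 for C1qb, and 0.31 and 0.38 for C1qc. Aif1, part of the marker mean, had r of -0.27 with C1qa, -0.51 with C1qb and -0.46 with C1qc in High mice. In Low mice these were 0.12, 0.0075 and -0.063. For C1qa with Tmem119, the pair with the lowest p in the test below, r was 0.0716 in High and 0.66 in Low mice. A test of the difference for each pair, added after the data were seen, permuted the lines within gender and gave p = 0.00425 for that pair (adjusted p = 0.191 over 45 pairs). It gave an unadjusted p under 0.05 for 4 of all 45 pairs, each of them among these 18, and an adjusted one for none. Over all 45 pairs 29 had a lower r in High mice, with 0 of the 9 pairs with C4b among them. The 18 pairs share genes and mice and are not independent. Pairs within the chains had medians of 0.618 in High and 0.634 in Low mice, and pairs within the markers 0.228 and 0.21.

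**Figure D4:**
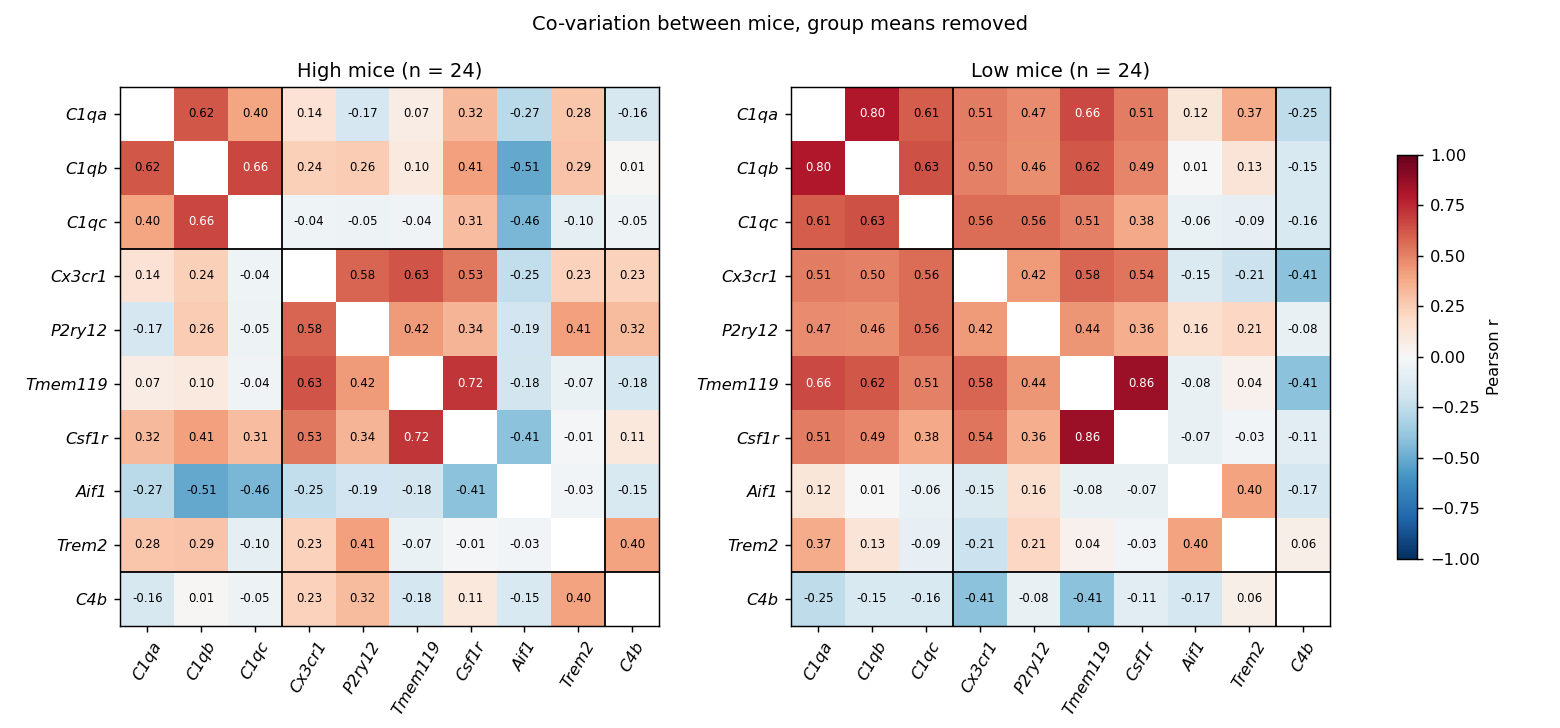
Pearson correlations between the 10 genes across 24 High mice and 24 Low mice, group means removed; black lines part the C1q chains, the other markers and C4b. The block of chains against markers is paler in High mice (median 0.084) than in Low mice (median 0.481), while pairs within the chains have medians of 0.618 and 0.634.

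**Figure D5:**
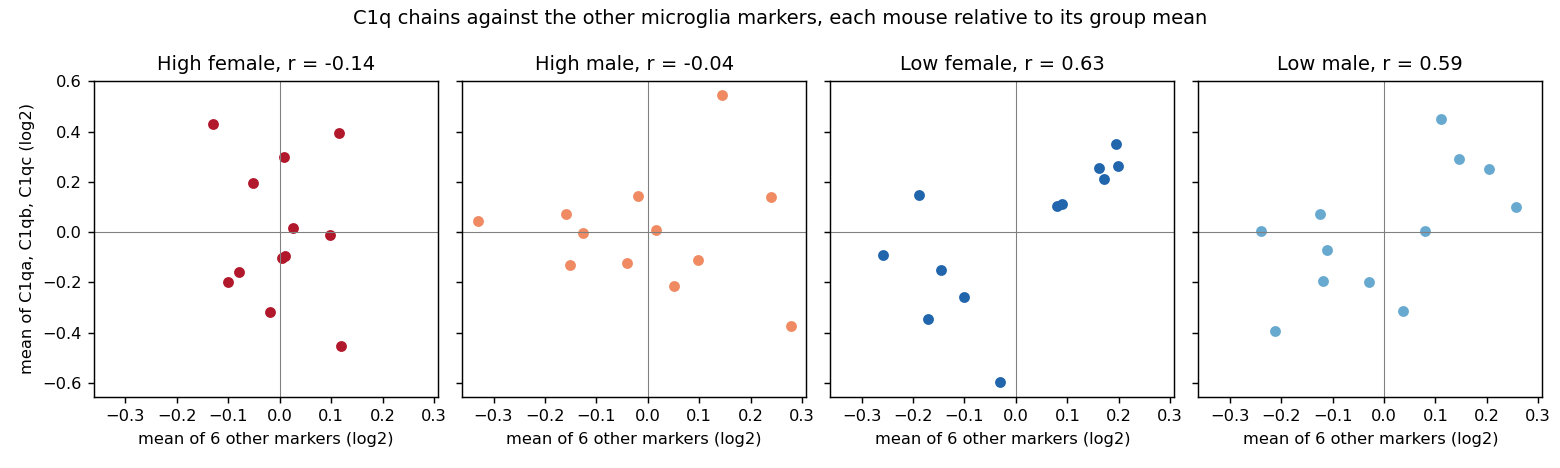
Mean log2 level of the 3 C1q chains (vertical axis) against that of the 6 other markers (horizontal axis) in each mouse, relative to its group mean, 12 mice per panel. The correlation is -0.14 in High females, -0.04 in High males, 0.63 in Low females and 0.59 in Low males.

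The genes most like each of the 10, at most 3 for each, across the 48 mice, by Pearson r with group means removed and the 10 genes left out, were named from all 15349 other genes as a description. For C1qa they were Ctss (0.63), a microglial lysosomal protease, and Gm9266 (0.60). For P2ry12 they were P2ry13 (0.71), an ADP receptor gene 0.00838 Mb away, and Rabgap1l (0.63). For Tmem119 they were Selplg (0.77), a selectin ligand gene 0.0241 Mb away, Dkc1 (0.70) and Vsir (0.69). For Csf1r they were Selplg (0.73) and Vsir (0.69), an immune checkpoint receptor. A gene known from microglia came first for C1qa, P2ry12, Tmem119 and Csf1r.

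The nearest genes of the others were of mixed kinds. For C1qb they were Clu (0.64), the gene of the complement regulator clusterin, Cpe (0.60) and Esd (0.59). For C1qc they were Ptchd4 (0.59, with a Spearman value of 0.34), Hp1bp3 (0.58) and Ddb2 (0.56). For Cx3cr1 they were Glrb (0.74), a glycine receptor subunit, Fam49b (0.70) and Vmp1 (0.69). For Aif1 they were Zfp318 (0.63), Ccl27a (0.63) and Sorbs2 (0.60), and for Trem2 a gene with no symbol in the annotation used, ENSMUSG00000090803 (0.63), Phb (0.60) and Ndufa1 (0.59). For C4b they were Arap1 (0.54), Xrra1 (0.54) and Anks6 (0.53).

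Hp1bp3, a chromatin protein, lies 1.33 Mb from C1qc on chromosome 4. Its counts averaged 3350 ± 494 in High and 2930 ± 351 in Low mice (log2 difference 0.19 ± 0.05, p = 0.000791, limma adjusted p = 0.108). Of the 164 tested genes within 5 Mb of C1qc, 17 had an unadjusted p under 0.05 for the line difference, 10.4% against 9.07% of all genes.

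Several measures of the libraries varied with single genes between mice. Over 60 relations of the 10 genes with 6 measures, added after the data were seen, 11 had an adjusted permutation p under 0.05 by Pearson and 16 by Spearman correlation. The 2 mice left out below were those farthest from the median of the measure. The share of counts in last exons, which ran from 46.8% to 59.6% of a library, had r = -0.46 with Tmem119 (Spearman -0.39, permutation p = 0.00172 and 0.00835, adjusted p = 0.0167 and 0.0455; -0.42 without the 2 farthest mice). It had r = -0.44 with Csf1r (Spearman -0.39, adjusted p = 0.0167 and 0.0455; -0.46 without 2 mice) and 0.43 with Aif1 (Spearman 0.37, adjusted p = 0.0173 and 0.0455; 0.32 without 2 mice). Trem2 had r = 0.37 with it (Spearman 0.38, permutation p = 0.0187 and 0.0116, adjusted p = 0.0802 and 0.0465; 0.37 without 2 mice). The sign was thus positive for Aif1 and Trem2 and negative for Tmem119 and Csf1r, and the part of this share in their correlations was not tested. Some other relations passed by Spearman correlation alone. The library total had a Spearman value of 0.41 with Cx3cr1 (adjusted permutation p = 0.0452, and 0.0755 by Pearson). With Tmem119 it was 0.40 (0.0452, and 0.106 by Pearson). The mean of pyramidal markers had 0.36 with Csf1r (0.0452, and 0.209 by Pearson). That of oligodendrocyte markers had 0.38 with P2ry12 (0.0469, and 0.0751 by Pearson). The mean of astrocyte markers had r = 0.45 with C1qb (Spearman 0.47, adjusted p = 0.0167 and 0.0134) and 0.43 with P2ry12 (Spearman 0.46, adjusted p = 0.0189 and 0.0141; 0.48 and 0.41 without 2 mice).

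The mean of the further microglia markers, other genes known from these cells, was set against the 10 genes. It had r = 0.74 with Csf1r, 0.69 with Tmem119, 0.59 with Cx3cr1, 0.51 with C1qa, 0.48 with P2ry12 and 0.43 with C1qb (adjusted permutation p of 0.0003, 0.0003, 0.0008, 0.0042, 0.0148 and 0.0173). The Spearman values were 0.73, 0.65, 0.59, 0.51, 0.44 and 0.38. No adjusted p under 0.05 was found for C1qc, Aif1, Trem2 or C4b with this mean.

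Further genes of microglia and complement were compared between the lines, and none in these lists was called; of all 15350 genes, 48.5% were above 0 and 9.07% had an unadjusted p under 0.05, 4.57% higher and 4.5% lower in High mice. Of 24 tested further microglia markers 12 were above 0, with a median log2 difference of 0.0012, and 1 had an unadjusted p under 0.05, a share below that of all genes. That gene was Olfml3, a secreted glycoprotein, at 145 ± 64.6 in High and 185 ± 54.0 in Low mice (log2 difference -0.41 ± 0.15, p = 0.00819, limma adjusted p = 0.307). Of 14 tested ligands and receptor partners 9 were above 0 (48.5% of all genes) and none had an unadjusted p under 0.05 (9.07% of all genes). Among them Tyrobp, the signalling adaptor of Trem2, averaged 244 ± 42.0 in High and 237 ± 53.8 in Low mice (0.06 ± 0.08, p = 0.472). It was chosen after its values were seen.

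Of 31 tested genes of a broad complement list 14 were above 0, beside 48.5% of all genes. At an unadjusted p under 0.05, 4 were higher and 1 lower in High mice, beside 4.57% and 4.5% of all genes. The list also held C1qbp and genes of the C1ql, Cbln, Sez6 and Csmd families, so these counts are not of complement components alone. Cd59a, an inhibitor of the membrane attack complex, averaged 66.2 ± 18.8 in High and 54.3 ± 12.7 in Low mice (log2 difference 0.25 ± 0.09, p = 0.0102, limma adjusted p = 0.322). Serping1, which inhibits C1r and C1s, averaged 49.9 ± 10.1 in High and 42.7 ± 10.3 in Low mice (0.20 ± 0.08, p = 0.0167). Sez6l averaged 783 ± 212 in High and 668 ± 154 in Low mice (0.21 ± 0.10, p = 0.0331), and its relative Sez6 11935 ± 1888 in High and 13280 ± 2590 in Low mice (-0.15 ± 0.07, p = 0.0416). Clu, the closest gene to C1qb above, averaged 9766 ± 1247 in High and 9066 ± 914 in Low mice (0.10 ± 0.05, p = 0.0421). C1ra, C3 and the receptors C3ar1 and C5ar1 did not pass the filter on low values.

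Of 22 listed genes associated with activated microglia 15 were tested. Cst7, Itgax, Clec7a, Ccl3, Ccl4, Il1b and Tnf did not pass the filter on low values. Of the 15 tested genes 13 were above 0, with a median of 0.05, beside 48.5% of all genes. An unadjusted p under 0.05 was found for 3 of them, beside 9.07% of all genes. Spp1, which encodes osteopontin, averaged 26.8 ± 13.8 in High and 16.0 ± 9.04 in Low mice (log2 difference 0.56 ± 0.16, p = 0.000749, limma adjusted p = 0.105). The chemokine gene Ccl6 averaged 20.9 ± 10.6 in High and 13.7 ± 6.32 in Low mice (0.40 ± 0.14, p = 0.00748), and Lpl, lipoprotein lipase, 1178 ± 234 in High and 1021 ± 210 in Low mice (0.21 ± 0.08, p = 0.0166). Lyz2 averaged 50.8 ± 26.6 in High and 37.0 ± 18.7 in Low mice (0.34 ± 0.18, p = 0.0722). The Low means of Spp1 and Ccl6 lay near the filter level. Which cells these transcripts came from was not tested. Of 7 listed genes of antigen presentation by class II molecules only 3 were tested, since H2-Aa, H2-Ab1, H2-Eb1 and Ciita did not pass the filter on low values. All 3 were above 0, and none had an unadjusted p under 0.05. Cd74, 1 of the 3, averaged 16.8 ± 9.60 in High and 13.2 ± 6.38 in Low mice, near the filter level.

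Marker lists of other cell types, in which no gene was called, are given beside these values. All 12 oligodendrocyte markers were below 0, 9 of them at an unadjusted p under 0.05, with a median of -0.21, and 11 of 12 astrocyte markers were above 0, 1 at an unadjusted p under 0.05, where 48.5% of all genes were above 0 and 9.07% had such a p. With the means of the oligodendrocyte and pyramidal lists as covariates, the C1qc difference was 0.39 (p = 0.00374) and the Trem2 difference -0.16 (p = 0.068). The difference for C1qc over 48 fits that each left out 1 library ran from 0.39 to 0.47.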

How the data were processed

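Poly(A) RNA was measured in 48 libraries, 12 in each group of line and gender. The authors deposited normalised read counts per gene and per exon as whole numbers, treated here as a score because their totals are nearly equal; their rounding is read from the values. Tools listed in the submitters' processing notes, without role or order, include STAR 2.4.0, edgeR 3.4.2, R 3.0.2, FastQC and CASAVA, with build mm9. Not given in the sources used here are the counter, strand setting, annotation and normalisation method, so no count model was fitted, and reads of overlapping genes on opposite strands could not be told apart. All deposited columns matched a library by its labels.

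Symbols, exon lengths and chromosomes came from GENCODE M21 (GRCm38) by Ensembl identifier, which named 32897 of 37620 genes. Exon starts on mm9 were read from the deposited exon table, and promoter windows are from RefSeq on GRCm38.p6; no position was converted.

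Values were tested as log2(value + 0.5 ppm) with limma 3.58.1 in R 4.3.3, in 1 fit of 48 libraries with a mean per group and a mean-variance trend. Calls needed an adjusted p (Benjamini-Hochberg, 15350 genes) under 0.05. Fold changes on this scale understate the change of low genes. Variability was tested on absolute deviations from the group median. Exons at 0.1 ppm or more in 12 libraries were fitted with a pseudocount of 0.05 ppm. On simulated data for the line difference over 15350 genes, 88% of log2 changes of 0.5 and 64% of changes of -0.3 were recovered. Changes of 0.3, 0.5, 1.0 and -0.3 were planted at once, each in 50 genes drawn from all tested genes. In the data itself 43 genes were called. With more changes planted than were called, and noise drawn independently for each gene, these shares can be too high for these data. The shares also need not hold for genes as variable as C1qc, Aif1 and C4b. Correlations were computed in Python 3.11.15 with numpy 2.4.6 on log2 values minus group means.

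All 10 genes are named whatever their values. The text also names genes among the 3 with the highest correlation to each, some of which are not reported here, and at most 4 genes per pathway list with the smallest line p. Clu is named as a gene most like C1qb, and Tyrobp outside the rule. The genes and lists were chosen with earlier results of these data known. Mice are independent samples as the labels list them; replicate numbers were assigned here in the order of the sample list and only name a mouse.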

Additional observations from a re-analysis of the deposited data

How the results depend on the processing

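None of the 10 genes was called by limma in any of 660 values recomputed under the alternatives (lowest adjusted p 0.071), nor in any fit without 1 library (lowest 0.0694, for C1qc), against 0 called with the settings used in the text, where 2 had an unadjusted p under 0.05 between the lines. Another sign was found in 28 of these values, none of them for the line difference over both genders and none larger than 0.0546 in size. For C1qc the line difference ran from 0.39 without High male replicate 3 to 0.47 without High female replicate 6, and for Trem2 from -0.22 to -0.16. The gender difference of C4b ran from 0.28 without Low male replicate 2 to 0.39 without Low male replicate 10. Counts over all genes moved more. With library weights 80 genes were called between the lines (43 in the text), 7 between the lines in females (4 in the text) and 15 for variability (9 in the text). Without a filter on low values the last 2 counts were 2 and 15, and with a filter of 5 ppm variability had 5. Leaving out 1 library gave 2 to 8 calls in females, 0 to 1 in males and 5 to 10 for variability. With equal column totals the gender difference was 0.000974 for C1qb and 0.00235 for Csf1r, and with median ratio scaling 0.000896 and 0.00226, with 0.000746 for the variability of C1qb. With library weights that of Csf1r was 0.0396. With the pyramidal and oligodendrocyte covariates the difference in females was 0.00126 for C1qb and 0.000389 for P2ry12, the interaction of P2ry12 0.0366, the gender difference 0.01005 for Csf1r and -0.0143 for Trem2, and the variability -0.0318 for C1qc and 0.00643 for Csf1r. Leaving out each library in turn, the difference in females ran from -0.083 to 0.0117 for C1qb. In males it ran from -0.0308 to 0.0685 for Cx3cr1, -0.0578 to 0.00376 for Csf1r, -0.12 to 0.0366 for Aif1 and -0.0084 to 0.212 for C4b. The interaction ran from -0.0649 to 0.0277 for P2ry12, -0.0945 to 0.00512 for Tmem119 and -0.0546 to 0.166 for C4b. The gender difference ran from -0.0246 to 0.0218 for C1qb, -0.0164 to 0.0206 for Csf1r and -0.0112 to 0.0486 for Trem2. The variability ran from -0.0265 to 0.00561 for C1qb, -0.0258 to 0.0343 for C1qc, -0.0291 to 0.00187 for Csf1r and -0.0551 to 0.00682 for Aif1. The cause of these changes was not tested. No paired analysis was run, since the groups hold separate mice with 1 library each and the labels name no pairs. The replicate numbers used in the text follow the order of the sample list. With the reads behind 1 deposited unit unknown, counting error could not be computed exactly.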

Other observations

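Among the complement genes, Serping1 averaged 49.8 ± 9.75 in females and 42.7 ± 10.7 in males (SD, n = 24 each; log2 difference 0.20 ± 0.08, p = 0.0146, limma adjusted p = 0.982). It was picked for the gender comparison after its values were seen.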
